A study of Homo sapiens with 6 samples.

Results

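Transcripts of 9 genes of xenobiotic oxidation were followed in HepG2 cells with and without formononetin: the receptor genes NR1I2 (PXR) and NR1I3 (CAR), the electron donor gene POR, and the enzyme genes CYP3A4, CYP3A5, CYP3A7, CYP2B6, CYP2E1 and FMO5. They were chosen by symbol, and all 9 matched 1 row each among 60564 rows with an Ensembl identifier. HepG2, a long-established human hepatoma line, is labelled wild type. There were 3 libraries from control cells, whose label names only the culture medium DMEM, and 3 from cells given formononetin, an O-methylated isoflavone of clover and astragalus. Treatment lasted 72 h, and the dose is labelled 625 with μm as its unit. All cells grew in DMEM with fetal calf serum and antibiotics. No solvent control or control culture time is named. The labels do not say whether replicates are separate cultures, and the p-values then reflect only library-to-library spread, which may be technical.

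PXR and CAR are nuclear receptors that sense foreign compounds and some steroids and bile acids. Each binds DNA as a heterodimer with RXR, and their classic targets in liver are CYP3A4 and CYP2B6, with conjugating enzymes and efflux transporters. Cytochrome P450 enzymes of the endoplasmic reticulum take electrons from NADPH through POR, whereas flavin monooxygenases such as FMO5 take them from NADPH directly. HepG2 is known for low levels of many drug-metabolising P450 enzymes compared with hepatocytes.

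The promoters of the 3 CYP3A genes are shown because CYP3A4 has a well-known binding site for PXR and CAR close to its start, and the CYP3A transcripts below can be read beside it. The site is an everted repeat with a spacer of 6 bases (ER6, searched on both strands as TGAACT, then 6 bases of any kind, then AGGTCA). Each run below is 118 bases from RefSeq (GRCh38.p14, minus strand, 5′ to 3′), with the 18 bases of the element, or of the stretch most like the CYP3A4 element, in capitals and 50 bases on either side.
CYP3A4 (chr7:99784286-99784403): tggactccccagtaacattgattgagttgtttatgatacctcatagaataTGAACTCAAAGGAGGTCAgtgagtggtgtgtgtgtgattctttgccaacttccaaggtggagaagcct
CYP3A5 (chr7:99680042-99680159): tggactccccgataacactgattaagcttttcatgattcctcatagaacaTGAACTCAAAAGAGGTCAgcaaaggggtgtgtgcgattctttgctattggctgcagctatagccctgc
CYP3A7 (chr7:99735297-99735414): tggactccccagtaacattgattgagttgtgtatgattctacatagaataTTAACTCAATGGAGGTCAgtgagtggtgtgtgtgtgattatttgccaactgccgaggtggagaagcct

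Counted from 1 at the 5′ end of the element, with the CYP3A4 base first, CYP3A5 differed by G11A, which lies in the spacer, and CYP3A7 by G2T in TGAACT and A10T in the spacer. Relative to the transcript start, the first base of the element lay at -169 in CYP3A4, -113 in CYP3A5 and -168 in CYP3A7. The exact letters of ER6 occurred in 3 of 35116 promoter windows of 300 bases (0.00854%), those of CYP3A4, CYP3A5 and ITGB1BP2. The letters AGGTCA alone, which end the element, are common (13.8% of windows) and were also found once in the windows of CYP2E1 and CYP2B6. Over aligned bases the CYP3A4 promoter was 94.3% identical to that of CYP3A7 and 85.9% to that of CYP3A5. Of 9 genes, 8 had a promoter entry, and no ER6 letters were found in those of NR1I2, NR1I3, CYP2B6, CYP2E1 or FMO5. Each window ran from 250 bases before to 50 bases after the start. Sites farther off and other kinds of receptor site were not searched, so a missing match does not show that a gene lacks a site. A match is a description of letters and not of binding.

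With formononetin, transcript of the receptor gene NR1I2 and of the electron donor POR rose and that of FMO5 fell, while none of the 3 CYP3A genes, NR1I3 or CYP2E1 passed the test, and CYP2B6 was too low to be tested. Of 8 genes that passed the filter on low counts, 2 were raised, 1 was lowered and 5 were not called (quasi-likelihood test of edgeR, with p adjusted over all genes by Benjamini-Hochberg and a threshold of 0.05). Over all 22230 genes tested, 12.0% were raised, 8.71% lowered and 20.7% changed in either direction. The median log2 fold change was -0.63 over the 8 genes and -0.01 over all genes. The median of the 8 lay between CYP2E1 (-0.62) and CYP3A4 (-0.65), both with few counts and not called, so it does not show a general fall. Of the 8, 2 had every formononetin library above every control library and 2 had every one below, where 39.4% of all tested genes did not overlap. Whether the 8 genes differ from the background was not tested. Under upper quartile scaling the split of calls over all genes turned from 57.9% raised to 39.8% raised, while each called gene here kept its direction and call.

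**Figure D1:**
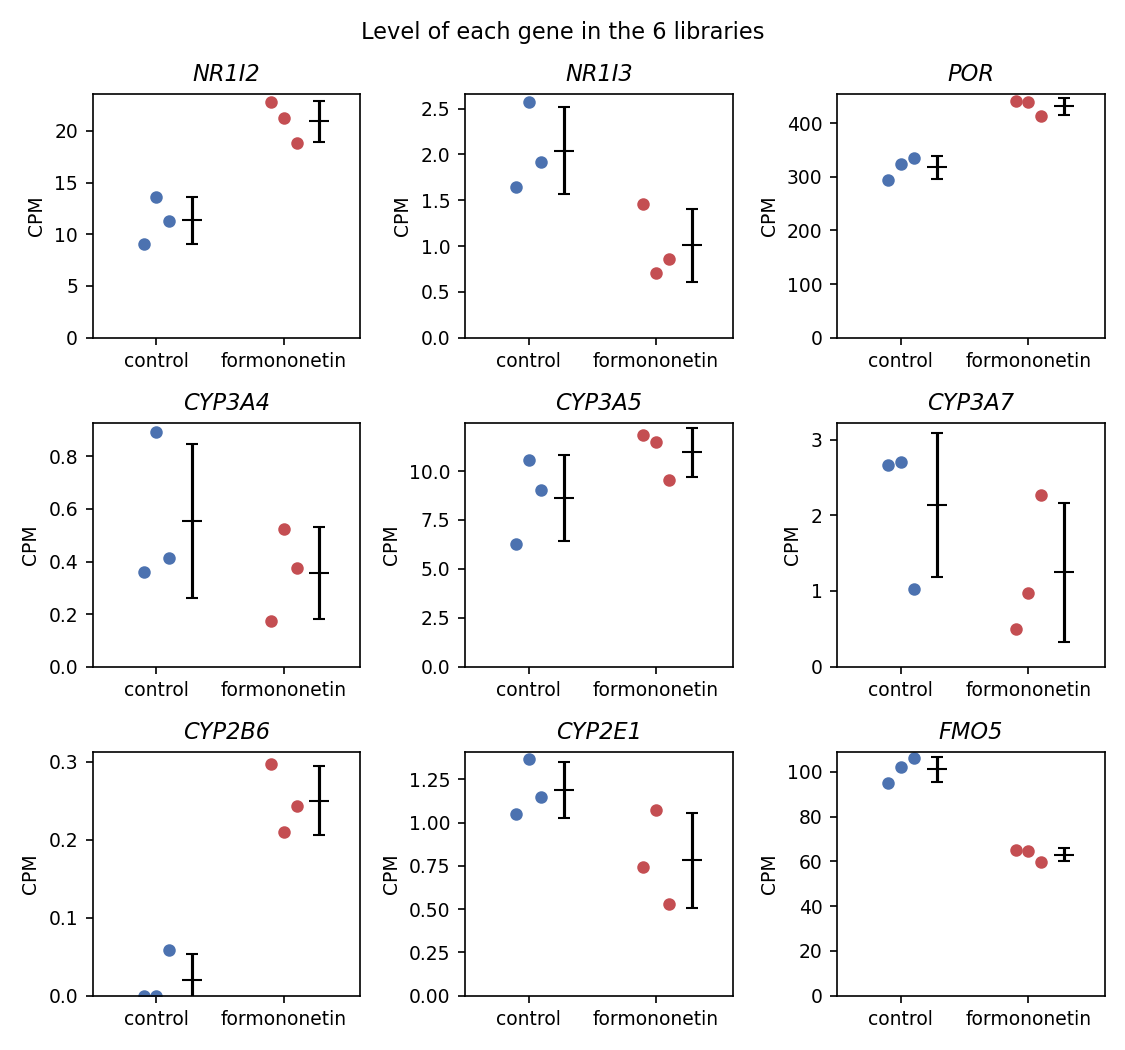
Level of each of the 9 genes in CPM (linear axes from 0, a different scale in each panel), with points for the 3 control (blue) and 3 formononetin (red) libraries and bars for mean ± SD. NR1I2, POR and CYP2B6 were higher in every formononetin library, and FMO5 and NR1I3 lower in every one.

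Levels are in CPM, counts scaled to the effective library size by TMM. Counts on named genes ran from 30848848 to 45682722 per library, the formononetin libraries being the deepest 3. The hepatocyte markers ALB, APOA1, APOA2, APOB, TTR, SERPINA1, TF and AFP were all detected and summed to 47539 to 48914 CPM without and 39467 to 40588 CPM with formononetin. Of 8 markers of blood, endothelial and stromal cells, PTPRC, COL3A1 and DCN were at 0 in every library and the 8 summed to 89.0 to 96.1 CPM without and 67.6 to 72.7 CPM with formononetin, most of it ACTA2 and PECAM1. Of 8 hepatocyte markers tested 1 rose and 6 fell, and of 4 tested in the other list 1 rose (CD68) and 1 fell (ACTA2). Over all genes 12.0% were raised and 8.71% lowered. The fall of APOB (-0.13) was not called in 8 of 15 alternative analyses, and the rise of CD68 in 2 of 15. The other marker calls held in all 15. The part of either list in the results was not tested. In bulk RNA, fewer cells with a transcript and less transcript per cell cannot be told apart.

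Among the receptors, NR1I2 encodes PXR (ENSG00000144852, chromosome 3, 119780484 to 119818485, plus strand, GRCh38). Control libraries 1 to 3 had 9.07, 13.6 and 11.3 CPM of NR1I2, and formononetin libraries 1 to 3 had 22.8, 21.2 and 18.8 CPM. Every formononetin library was above every control library. The level was 11.3 ± 2.29 CPM without and 20.9 ± 2.0 CPM with formononetin (SD, n = 3 each), a rise of 0.88 ± 0.15 (SE) on the log2 scale or 1.84-fold, with adjusted p = 0.00736. NR1I2 shares 219 exonic bases with the gene model AC069444.2, which held 60 counts in all libraries together.

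NR1I3 encodes CAR (ENSG00000143257, chromosome 1, 161229666 to 161238302, minus strand). It had 1.64, 2.57 and 1.92 CPM without and 1.46, 0.707 and 0.860 CPM with formononetin, from 27 to 92 counts each. All formononetin libraries were lower, the nearest pair being control replicate 1 and formononetin replicate 1. The log2 fold change of NR1I3 was -1.02 ± 0.31, with adjusted p = 0.0562, and so was not called. It passed the threshold in 5 of 15 alternative analyses, with adjusted p from 0.0231 without formononetin replicate 1 to 0.168 without control replicate 2. NR1I3 shares 661 exonic bases with TOMM40L on the opposite strand, which held 572 to 839 counts per library and was not called (-0.13 ± 0.17). Since the strand setting of the counting is not given in the sources used here, reads of the pair could have been split, which was not tested.

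POR, cytochrome P450 oxidoreductase, passes electrons to all microsomal P450 enzymes (ENSG00000127948, chromosome 7, 75899200 to 75986855, plus strand). It was the most abundant of the 9, at 294, 324 and 335 CPM without and 442, 439 and 412 CPM with formononetin. The groups did not overlap, with a gap wider than the range within either group. POR went from 318 ± 21.3 to 431 ± 16.3 CPM, a rise of 0.44 ± 0.06 on the log2 scale or 1.36-fold (adjusted p = 0.00233).

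The 3 CYP3A genes followed here lie side by side on chromosome 7 (CYP3A5 at 99648194 to 99680026, CYP3A7 at 99684957 to 99735196 and CYP3A4 at 99756960 to 99784265, minus strand). CYP3A4 encodes the main drug-oxidising P450 of adult liver, CYP3A7 the form that prevails in fetal liver and CYP3A5 a close relative that also occurs outside the liver. None of the 3 passed the test, and CYP3A5 made up most of their counts in every library.

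CYP3A5 (ENSG00000106258) had 6.28, 10.6 and 9.02 CPM without and 11.8, 11.5 and 9.55 CPM with formononetin. The lowest formononetin library lay below the highest control library. The log2 fold change of CYP3A5 was 0.34 ± 0.19 (adjusted p = 0.264), and 0.16 without control replicate 1, the lowest library. CYP3A4 (ENSG00000160868) was low, with 11, 32 and 14 counts in control and 7, 20 and 17 in formononetin libraries. Its groups overlapped at 0.556 ± 0.293 and 0.357 ± 0.176 CPM, and the log2 fold change of CYP3A4 was -0.65 ± 0.51 (adjusted p = 0.424), with -0.12 without control replicate 2. At these counts a change of CYP3A4 smaller than the spread was not detectable.

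CYP3A7 (ENSG00000160870) varied widely within groups, with 81, 97 and 35 counts in control and 20, 37 and 103 counts in formononetin libraries. The variation had a counterpart in the readthrough model CYP3A7-CYP3A51P, with which CYP3A7 shares 1507 exonic bases on the same strand. The readthrough had 0, 0 and 45 counts in control and 67, 40 and 6 in formononetin libraries, so it was high where CYP3A7 was low. Summed with the readthrough and the pseudogene CYP3A51P, CYP3A7 had 82, 97 and 80 counts in control and 88, 80 and 110 in formononetin libraries. The sum was 2.59 ± 0.199 CPM without and 2.23 ± 0.172 CPM with formononetin, where CYP3A7 alone was at 2.13 ± 0.955 and 1.25 ± 0.919 CPM. The log2 fold change of CYP3A7 was -0.76 ± 0.57 alone (adjusted p = 0.404) and -0.21 ± 0.14 as the sum (adjusted p = 0.36). Without formononetin replicate 3 the value for CYP3A7 alone was -1.55 (adjusted p = 0.102), the widest move of any library left out.

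**Figure D2:**
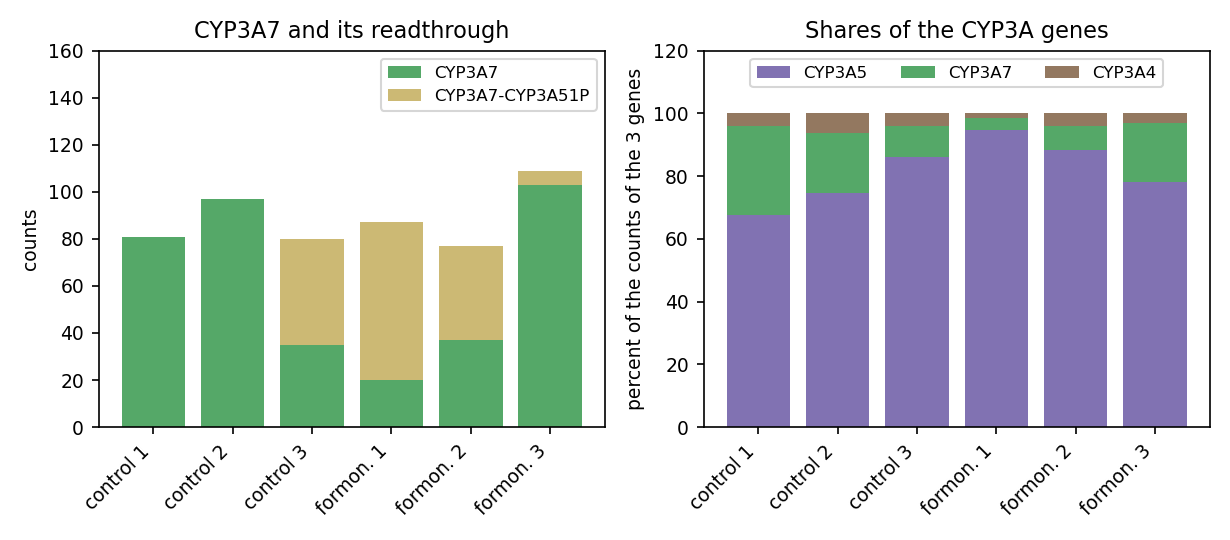
Left, counts of CYP3A7 (green) with those of the readthrough CYP3A7-CYP3A51P stacked on top (yellow) in the 6 libraries. Right, the percent of the summed counts of CYP3A4, CYP3A5 and CYP3A7 held by each gene. The green parts span 20 to 103 counts and the stacked bars differ less, and CYP3A5 (purple) is the widest part in every library.

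Transcripts of the CYP3A genes are alike, but few stretches are identical: of the 50-base windows of CYP3A4 transcripts, 5.49% also occur in CYP3A7 and 2.35% in CYP3A5 transcripts. Of the windows of CYP3A7-CYP3A51P, 92.9% occur in CYP3A7. The 3 genes summed as 1 feature changed by 0.15 ± 0.16 on the log2 scale (adjusted p = 0.561), from 9.30, 14.2 and 10.5 CPM in control to 12.5, 13.0 and 12.2 CPM in formononetin libraries. CYP3A5 held 76.1 ± 9.44% of the counts of the 3 genes in control and 87.1 ± 8.26% in formononetin libraries (exact permutation p = 0.2, two-sided, where 3 against 3 libraries cannot go below 0.1). With the readthrough and pseudogene counted to CYP3A7, the share of CYP3A5 was 67.3, 74.6 and 76.5% in control and 83.4, 81.4 and 77.3% in formononetin libraries (exact permutation p = 0.1). CYP3A7 held 19.2 ± 9.38 and 10.0 ± 7.66% (exact permutation p = 0.2), and CYP3A4 4.71 ± 1.38 and 2.83 ± 1.34% (exact permutation p = 0.3). Over these 3 shares no exact permutation test could pass a threshold of 0.05.

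CYP2B6, the classic target of CAR (ENSG00000197408, chromosome 19, 40991250 to 41018398, plus strand), had 0, 0 and 2 counts in control and 12, 8 and 11 counts in formononetin libraries. A count of 0 allows up to 3 counts, 0.0986 CPM in control replicate 1 and 0.0837 CPM in control replicate 2. All formononetin libraries were higher, at 0.209 to 0.297 CPM. The mean of CYP2B6 was the lowest of the 9 genes in both groups, although in formononetin replicate 1 CYP3A4 was lower (0.173 CPM). Over summed counts, 31 against 2, the rate was 12.5 times that of control (95% exact interval 3.19 to 108, which covers counting error only). CYP2B6 did not pass the filter on low counts, and with no filter it had adjusted p = 0.0558. Its transcripts share 7.74% of 50-base windows with the pseudogene CYP2B7P.

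CYP2E1, which oxidises ethanol and small solvents and is not a classic target of PXR or CAR (ENSG00000130649, chromosome 10, 133520406 to 133561220, plus strand), had 1.05, 1.37 and 1.15 CPM without and 0.743, 1.07 and 0.529 CPM with formononetin. The highest formononetin library lay just above the lowest control library. The log2 fold change of CYP2E1 was -0.62 ± 0.29 (adjusted p = 0.187), from 24 to 49 counts per library, and it was -0.40 without formononetin replicate 3. CYP2E1 shares 2064 exonic bases with SYCE1 on the opposite strand, which held 3 counts in all.

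FMO5 is a flavin monooxygenase of liver that can insert oxygen into ketones (ENSG00000131781, chromosome 1, 147175351 to 147243050, minus strand). It had 95.2, 102 and 106 CPM without and 65.1, 64.6 and 59.5 CPM with formononetin. The groups lay far apart, and each group spanned little. FMO5 went from 101.2 ± 5.55 to 63.1 ± 3.08 CPM, a log2 fold change of -0.68 ± 0.06 (adjusted p = 0.00056), the smallest adjusted p among the 9 genes. Its neighbour CHD1L, which shares 18 exonic bases with it on the opposite strand, was not called (-0.06 ± 0.04).

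**Figure D3:**
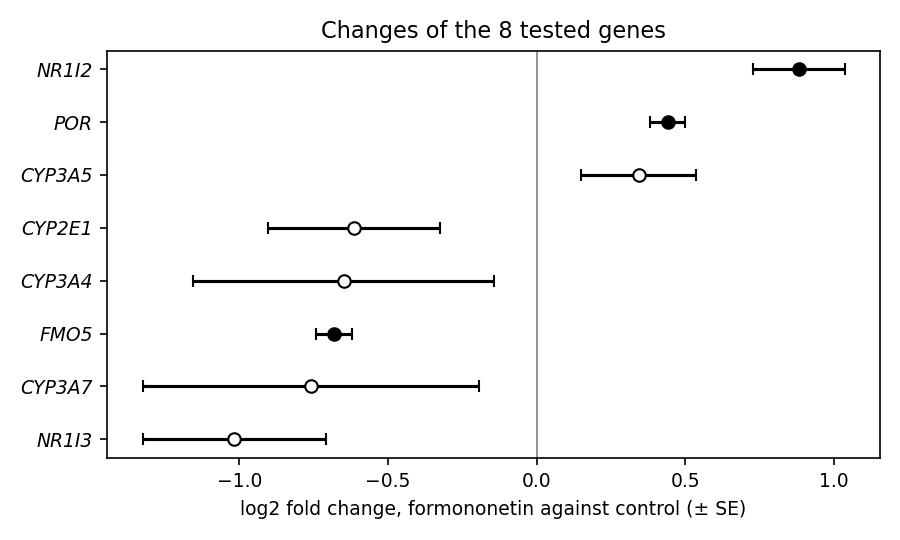
Log2 fold change of formononetin against control ± SE for the 8 tested genes, with filled points for adjusted p under 0.05. NR1I2 (0.88) and POR (0.44) lie to the right and FMO5 (-0.68) to the left, and the wide bars belong to genes with few counts.

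To compare levels between genes, CPM was divided by the exon length of each gene in kb. In control libraries POR led with 52.0 ± 3.48 CPM per kb, followed by FMO5 with 16.9 ± 0.927, NR1I2 with 2.11 ± 0.425 and CYP3A5 with 1.28 ± 0.322 CPM per kb. These 4 did not overlap with one another. NR1I3 (0.618 ± 0.144 CPM per kb) and CYP3A7 (0.560 ± 0.251) overlapped, as did CYP3A7 and CYP3A4 (0.177 ± 0.0934) and CYP3A4 and CYP2E1 (0.124 ± 0.0168). CYP2B6 was last at 0.00522 CPM per kb. In formononetin libraries POR was at 70.5 ± 2.67, FMO5 at 10.5 ± 0.514, NR1I2 at 3.89 ± 0.371 and CYP3A5 at 1.62 ± 0.182 CPM per kb, in the same order and again without overlap. The level of CYP3A7 (0.327 ± 0.241 CPM per kb) then overlapped with that of NR1I3 (0.306 ± 0.121) and CYP3A4 (0.114 ± 0.056). Exon length takes all annotated exons together, so a gene with long rare exons, such as CYP2E1 with 9621 bases, appears lower.

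**Figure D4:**
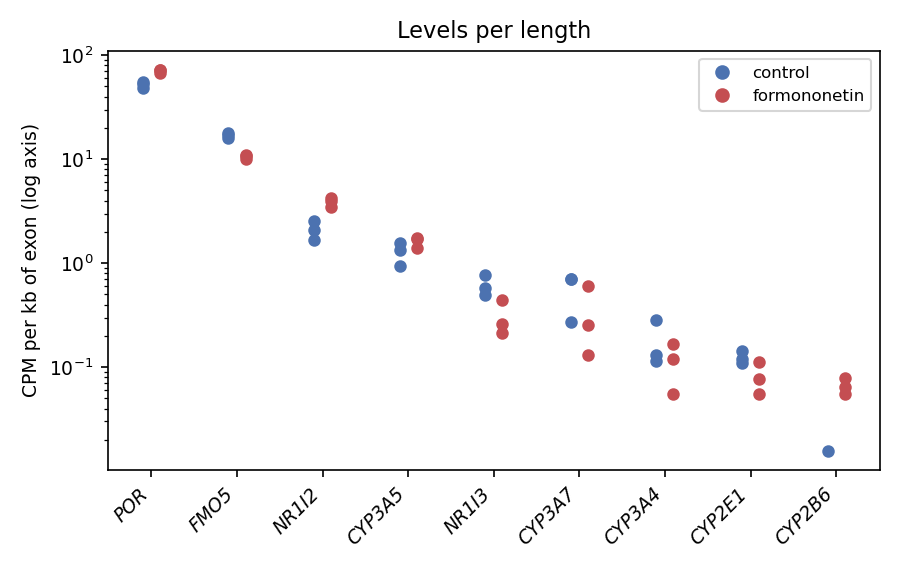
CPM per kb of exon on a log axis for the 9 genes in control (blue) and formononetin (red) libraries, ordered by the control mean, with values of 0 not drawn. POR and FMO5 stand above the rest, and the 5 genes on the right lie below 1 CPM per kb in every library.

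The genes whose pattern over the 6 libraries was nearest were F2RL1 and KCTD20 for POR, FRAS1 and CFB for FMO5, and ACER3 and UNKL for NR1I2. Likeness was the root mean square difference of log2 CPM after subtraction of each gene's mean, over 9503 genes. It was 0.02 and 0.03 for POR, 0.03 and 0.03 for FMO5 and 0.06 and 0.10 for NR1I2. The closest of so many genes are alike by selection, and a similar fold change makes them so (F2RL1 0.45 and KCTD20 0.42 beside POR 0.44). Shared control was not tested.

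The pathway lists below are described by their counts of called genes, to be read beside 12.0% raised and 8.71% lowered over all genes. No list was tested against that background, which also holds many genes with few counts. The lists were chosen with earlier results of these data known, so their counts cannot show that a list differs from the background. RXR, HNF4A, FOXA factors and coregulators form the list of 17 partners and regulators, of which 16 were tested, 3 rose and 8 fell (median log2 fold change -0.20). When any 1 library was left out, 2 to 3 rose and 3 to 5 fell, and without formononetin replicate 1 both numbers were 3. The number that fell was 4 with library totals only, with no filter on low counts or with the replicate block, and 9 in the alternative that gave most. HNF4A, a hepatocyte nuclear receptor that drives both NR1I2 and NR1I3, rose from 185 ± 6.40 to 251 ± 31.3 CPM (0.44 ± 0.09, adjusted p = 0.012). CEBPA, a liver-enriched factor, rose by 0.43 ± 0.06 (adjusted p = 0.00316) and NR0B2, a corepressor (SHP), by 0.30 ± 0.07 (adjusted p = 0.0202). The rise of NR0B2 was not called in 6 of 15 alternatives. FOXA2, a pioneer factor of liver, fell most, from 54.1 ± 2.58 to 38.3 ± 1.48 CPM (-0.50 ± 0.06, adjusted p = 0.00168). The coactivator NCOA3 fell by 0.41 on the log2 scale (adjusted p = 0.000501). The heterodimer partner RXRA was at 89.4 ± 15.3 CPM without and 102 ± 3.66 CPM with formononetin and was not called (0.19 ± 0.12, adjusted p = 0.3). The corepressor NCOR1 had the highest level of the list, at 342 ± 11.8 and 326 ± 6.45 CPM, and was not called (-0.07 ± 0.04).

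CAR is held in the cytosol by a complex with heat shock protein 90. Of its 5 listed genes HSP90AA1 rose, from 699 ± 25.1 to 1062 ± 35.9 CPM (0.60 ± 0.04, adjusted p = 0.000295), and PPP1R16A fell (-0.39 ± 0.10, adjusted p = 0.033), a call lost in 6 of 15 alternatives. HSP90AB1, the most abundant, was at 2517 ± 100.6 CPM without and 2722 ± 84.0 CPM with formononetin and was not called (0.11 ± 0.04, adjusted p = 0.118). The median over the list was 0.07.

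Among 19 other genes known as targets of PXR or CAR, 15 were tested and 8 rose, at a median of 0.45, and no gene of the list fell, beside 12.0% raised and 8.71% lowered over all genes. In every alternative 7 or 8 were raised, and SLC13A5, a citrate transporter, was lowered in 2 of them, upper quartile scaling and the 1 CPM filter. UGT1A1, which conjugates bilirubin, led with 6.50 ± 1.09 CPM without and 103 ± 9.07 CPM with formononetin (3.99 ± 0.13, adjusted p = 1.16e-05). It shares exons with the other UGT1A genes, so its own part is uncertain. TSKU, a secreted liver protein, rose by 1.55 ± 0.19, EPHX1, the microsomal epoxide hydrolase, by 0.90 ± 0.10 and SULT2A1, a steroid sulfotransferase, by 0.89 ± 0.05. The efflux pumps ABCC2, ABCB1 and ABCC3 rose by 0.65 ± 0.05, 0.58 ± 0.05 and 0.45 ± 0.05, with ABCC2 the most abundant of the list at 808 ± 24.9 CPM without and 1267 ± 60.9 CPM with formononetin. ALAS1, the first enzyme of heme synthesis, rose by 0.23 ± 0.06 (adjusted p = 0.0321), a call lost in 7 of 15 alternatives. CYP2C8, a PXR target, had 20, 18 and 11 counts in control and 14, 0 and 12 in formononetin libraries (-1.23 ± 0.76, adjusted p = 0.307). A place in the list does not show which receptor acted on a gene, and that was not tested. Outside the lists, the P450 gene CYP1A1 rose from 2.28 ± 0.398 to 471 ± 19.1 CPM (7.69 ± 0.12, edgeR adjusted p = 4.32e-07).

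**Figure D5:**
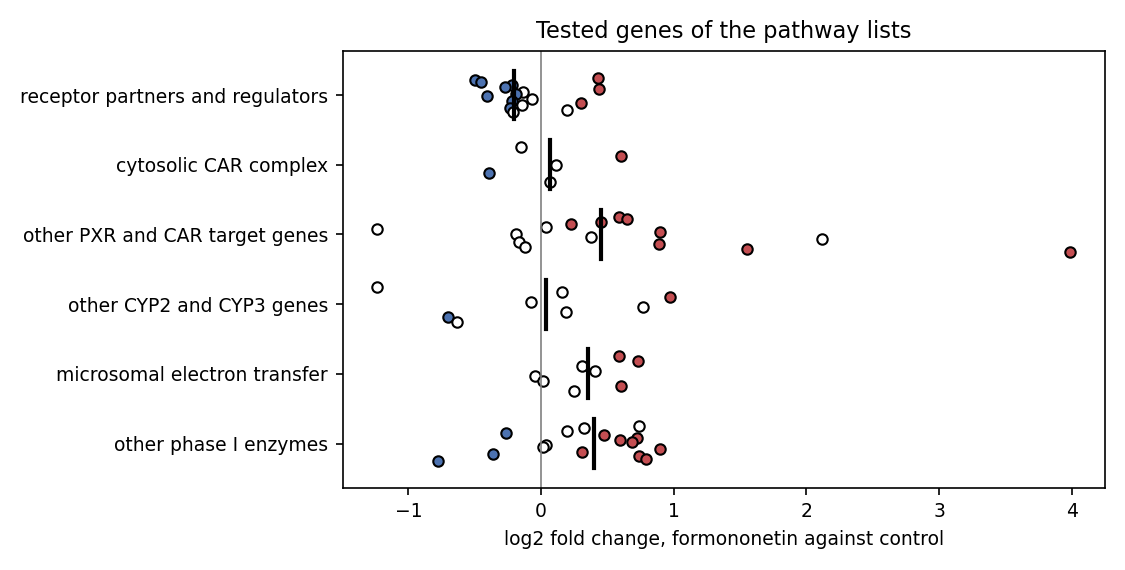
Log2 fold change of each tested gene of 6 pathway lists, with red for raised, blue for lowered and white for not called, and a bar at the median of each list. The medians are -0.20 for receptor partners and 0.45 for other PXR and CAR targets, and UGT1A1 (3.99) lies farthest to the right.

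Other members of the CYP2 and CYP3 families were mostly low. Of 15, 8 were tested, 1 rose and 1 fell (median 0.04). Over the alternatives 1 to 2 rose and 1 fell. CYP2S1 was higher in every formononetin library, at 4.25 ± 1.33 CPM without and 7.23 ± 1.63 CPM with formononetin. It was not called (0.77 ± 0.27, edgeR adjusted p = 0.0854), but passed the threshold in 2 of 15 alternatives. CYP2J2, which makes epoxides of arachidonic acid, rose from 3.03 ± 0.328 to 5.94 ± 0.945 CPM (0.97 ± 0.16, adjusted p = 0.00562). CYP2W1, a P450 often found in tumours and fetal tissue, was the most abundant of the list and fell from 44.9 ± 3.79 to 27.6 ± 2.97 CPM (-0.70 ± 0.10, adjusted p = 0.00322). FMO4, a relative of FMO5, had 0 to 11 counts per library and was not tested.

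Besides POR, cytochrome b5 can hand electrons to P450 enzymes. Of 8 listed genes of cytochrome b5, its reductases and heme-binding partners, 3 rose and none fell (median 0.36), beside 12.0% raised and 8.71% lowered over all genes. CYB5B, a cytochrome b5 of the mitochondrial outer membrane and so not microsomal, rose most (0.73 ± 0.14, adjusted p = 0.00954), followed by PGRMC1, a heme protein that binds P450 enzymes (0.60 ± 0.06, adjusted p = 0.000632), and CYB5A, the microsomal cytochrome b5 (0.59 ± 0.13, adjusted p = 0.0204). The call of CYB5A was lost without formononetin replicate 2 or without replicate 3, with adjusted p up to 0.0706. The reductase CYB5R3 had the highest level, 147 ± 9.97 CPM without and 143 ± 9.46 CPM with formononetin, and was not called (-0.04 ± 0.07).

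Of 21 further phase I enzyme genes, 16 were tested, 8 rose and 3 fell (median 0.40), beside 12.0% raised and 8.71% lowered over all genes. The fallers numbered 0 to 2 when any 1 library was left out. EPHX1 rose most. The carboxylesterase CES1 was the most abundant, at 407 ± 4.81 CPM without and 653 ± 16.1 CPM with formononetin (0.68 ± 0.04, adjusted p = 9.99e-05). Rises were also called for the oxidases MAOB (0.74 ± 0.05) and AOX1 (0.72 ± 0.07). Falls were called for MAOA (-0.36 ± 0.10) and ADH6 (-0.26 ± 0.06), calls lost in 7 and 8 of 15 alternatives. PON1, the paraoxonase of plasma lipoproteins, fell most (-0.78 ± 0.17, adjusted p = 0.019), from 2.5 ± 0.405 to 1.46 ± 0.0792 CPM, a call lost in 3 of 15 alternatives.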

How the data were processed

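The authors deposited 1 table of raw gene counts (whole numbers) for 6 libraries, prepared with a stranded mRNA kit per the labels' protocols. The submitters' processing notes name GRCh38, STAR 2.5.3a and StringTie 1.3.1c, with no roles. Which program counted reads, with which strand option and annotation, is not given in the sources used here. The 2165 rows without an Ensembl identifier (3.82 to 5.62% of counts per library) entered neither library sizes nor tests. Symbols came from a gene name table, coordinates and exons from GENCODE 29, and promoters from RefSeq.

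Genes were kept by filterByExpr and scaled by TMM, and the groups were compared with the quasi-likelihood test of edgeR 4.0.16 (R 4.3.3), group as the only term, with Benjamini-Hochberg adjustment over 22230 genes. Standard errors were derived from the log2 fold change and its F statistic. On simulated counts for 21723 genes of this comparison the test recovered 50 of 50 changes of 2 on the log2 scale, 36 of 50 of 1, 31 of 50 of -1 and 16 of 50 of 0.5, and called 9 of 21523 unchanged genes. No library was a duplicate of another (chi-square per degree of freedom 14.7 to 39.2 within groups). More rows held the value 3 than the value 2 in each library, so 1 count may not be 1 read, and floors and intervals cover counting error only.

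The genes and lists were chosen with earlier results of these data known. Named list genes were the largest called rise, the largest called fall (mean of 1 CPM or more) and the highest level in each list. RXRA, NCOA3, CEBPA, NR0B2, TSKU, SULT2A1, ABCB1, ABCC3, ALAS1, CYP2C8, PGRMC1, CYB5A, MAOB, AOX1, MAOA, ADH6, SLC13A5, GSTA2, CYP2A6 and INSIG1 were named after their values were seen. The same holds for CYP1A1, CYP3A43 and CYP2S1. Alternatives were DESeq2 1.42.0, voom of limma 3.58.1, other scalings and filters, a replicate block, the rows without identifier kept, sums of overlapping genes, and each library left out.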

Additional observations from a re-analysis of the deposited data

How the results depend on the processing

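The calls of NR1I2, POR and FMO5 held in every alternative run, with log2 fold changes of 0.75 to 1.04, 0.36 to 0.48 and -0.76 to -0.64. The number of the 9 genes lowered was 2 in place of 1 under upper quartile scaling, with a filter of 1 CPM in 3 libraries, with DESeq2, with voom and without formononetin replicate 1, the added gene being NR1I3; the number was 1 to 2 over the libraries left out. Over all genes, leaving out 1 library gave 1703 to 2189 raised and 1272 to 1478 lowered, lowest without formononetin replicate 3 and control replicate 3. With the replicate number as a block, 1921 genes were raised and 1362 lowered, and NR1I2 kept its call (0.90). The labels do not say that numbers pair libraries, and the deviations of same-numbered libraries correlated by -0.02 to 0.01. The difference in CYP3A5 share, 11.05 percentage points, ran from 6.74 to 16.1 over the alternatives, that of CYP3A7 from -13.8 to -4.46 and that of CYP3A4 from -2.98 to -1.08. Counting the readthrough to CYP3A7 was chosen after the data were seen. CYP2B6, CYP3A4, CYP2E1 and NR1I3 each had under 100 counts per library, and the part of depth in their missing calls was not tested.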

Other observations

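Counts of a low P450 gene beside CYP2B6, chosen after its values were seen, were as follows. CYP2A6, a nicotine oxidase that is also a known PXR and CAR target, had 6, 8 and 9 counts in control and 3, 0 and 3 counts in formononetin libraries, so every formononetin library was lower, whereas every formononetin library was higher for CYP2B6. With no filter on low counts neither passed the test (edgeR adjusted p = 0.154 for CYP2A6 and 0.0558 for CYP2B6). CYP2C18 and CYP2C19 had no counts in any library. GSTA2, a glutathione transferase, had 6, 0 and 7 counts in control and 36, 12 and 24 in formononetin libraries (log2 fold change 2.12 ± 0.76, edgeR adjusted p = 0.095, not called). INSIG1, a sterol-regulated gene listed among PXR and CAR targets, was listed at 0 in every library. That 0 does not show that the gene was silent, since it may be a failure of counting, which was not tested.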
